A study of Mus musculus with 88 samples.

Results

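Ribosomal proteins are the protein subunits of the ribosome. The cytosolic ribosome translates nuclear messages, and its subunits are named Rpl in the large and Rps in the small subunit. The mitochondrial ribosome translates the few messages of the mitochondrial genome, and its subunits, Mrpl and Mrps, are themselves made in the cytosol from nuclear genes. The cytosolic genes are among the most transcribed genes of a cell, many of them carry a pyrimidine tract at the transcription start that couples their translation to growth signals, and reverse transcription of their messages has left many processed pseudogenes in mammalian genomes.

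The genes were chosen by symbol in the GRCm38 annotation. An Rpl or Rps symbol followed by a number, with Rplp0, Rplp1, Rplp2 and Rpsa, made the cytosolic group, and an Mrpl or Mrps symbol followed by a number made the mitochondrial group, while symbols of pseudogenes, the Rps6k kinases and Rps19bp1, a binding protein, were left out. This gave 163 of 55536 annotated genes, of which 85 were cytosolic and 78 mitochondrial, and 7 further symbols of the same form were left out because they are annotated as pseudogenes. In the mPFC, 82 cytosolic and 76 mitochondrial genes were tested among 18946 genes. In the vHPC, 80 and 76 were tested among 19559 genes, and in the BNST, 81 and 77 among 17515 genes. Mrpl53, Mrps23, Rpl3l, Rpl10l and Rpl39l had no values in the mPFC and vHPC tables, and Rpl23a and Rps29 had none in the vHPC table.

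RNA was sequenced from the medial prefrontal cortex (mPFC), the bed nucleus of the stria terminalis (BNST) and the ventral hippocampus (vHPC) of male mice aged 8 weeks, with 1 library per mouse and region. The mice were C57BL/6Crl (B6) or DBA/2Crl (D2) as the labels spell them, given as C57BL/6NCrl and DBA/2NCrl in the study's methods, both inbred wild-type strains. Control mice had not been defeated, and mice that went through chronic social defeat stress (CSDS), a daily defeat by an aggressive CD1 male, were classed as resilient or susceptible by their social avoidance afterwards. For the mPFC, each B6 group (control, resilient, susceptible) had 6 mice, and D2 supplied 6 controls and 8 susceptible mice. For the BNST, each B6 group had 5 mice, and D2 supplied 5 controls, 3 resilient and 5 susceptible mice. For the vHPC, B6 supplied 6 controls, 8 resilient and 3 susceptible mice, and D2 supplied 6 controls and 5 susceptible mice. The replicate is the mouse, and p values measure the spread between the mice of these groups. In the mPFC and vHPC, this is the spread left after the authors adjusted the values for sets of library preparation. The fits did not account for that adjustment, so p values there may be too small.

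The mPFC and vHPC shared a method of depleting ribosomal RNA, the BNST had another, and each region had its own library kit. Region and kit thus cannot be told apart, and differences between regions are given side by side without a test. BNST libraries held 11825757 to 25793910 counted reads. The counts behind the deposited log2 CPM values of the mPFC and vHPC cannot be recovered, so the precision there is the spread between mice. Neuron, oligodendrocyte and astrocyte markers were detected in every region.

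The 2 groups of genes differ in their gene structure. The cytosolic genes have a median exon length of 1739 bases, and 30 of 85 hold 58 small nucleolar RNA genes within their introns or exons. The mitochondrial genes have a median exon length of 2394 bases, and 0 of 78 hold one. The share of a gene's transcript that also exists elsewhere among annotated transcripts was counted in windows of 96 bases. In the cytosolic genes the median share was 19.9% and the highest 91.4%, and 42 of 85 genes had more than 20% shared. In the mitochondrial genes the median was 0%, and 8 of 78 genes had more than 20% shared, compared with 13.6% of the other 21742 protein-coding genes. A read from a shared stretch cannot be assigned to 1 of its sources, so the cytosolic genes are the less certain group.

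The promoters differ as well. RefSeq start sites on GRCm38.p6 were matched for 65 cytosolic, 69 mitochondrial and 16387 other protein-coding genes. The pyrimidine run CTTTCC or CTTTTC, read on the gene's own strand within 20 bases of the start, was found in 24.6% of cytosolic, 2.9% of mitochondrial and 3.47% of other promoters. In the window from 250 bases before to 50 after the start, on either strand, CCGGAAG (the core bound by ETS factors) was found in 40% of cytosolic, 37.7% of mitochondrial and 13.1% of other promoters. AAGATGGC (bound by YY1) was found in 9.23%, 17.4% and 3.56%, GCATGCGC (bound by NRF1) in 4.62%, 11.6% and 4.08%, and ACTACAATT in 0%, 0% and 0.61%. The start regions of 3 cytosolic genes that had higher values in D2 than in B6 control mice in the vHPC are shown because they carry the tract. Each runs from 30 bases before to 20 after the start, is on the minus strand, and has the tract, and in Rps10 also CCGGAAG, in capitals. They lie in chr14:18270937-18271236 (Rpl15), chr17:27635195-27635494 (Rps10) and chr3:90213599-90213898 (Rps27).
Rpl15: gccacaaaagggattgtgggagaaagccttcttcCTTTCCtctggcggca
Rps10: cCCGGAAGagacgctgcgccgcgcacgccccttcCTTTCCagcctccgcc
Rps27: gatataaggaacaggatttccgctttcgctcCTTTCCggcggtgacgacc

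For Rpsa, Rpl3 and Rpl14, a copy in the annotation is nearly identical to the message. Rpsa (chr9:120127689-120132369, plus strand) encodes a small subunit protein that is also a laminin receptor precursor, and its processed pseudogene Rpsa-ps10 (chr3:150072658-150073542, minus strand) differs from it at 6 of 885 coding bases (99.32% identity). Rpl3 (chr15:80077791-80091868, minus strand) encodes a core protein of the large subunit, and Rpl3-ps1 (chrX:13202571-13203780, plus strand) differs at 2 of 1209 coding bases (99.83% identity). Rpl14-ps1 differs from Rpl14 at 4 of 648 aligned coding bases (99.38% identity). The copies of Rpl29 and Rplp0 that were compared are less alike: Rpl29-ps2 differs from Rpl29 at 11 of 480 coding bases (97.71% identity) and Rplp0-ps1 from Rplp0 at 41 of 933 (95.61% identity). The first 90 coding bases of Rpsa and Rpl3 and of their closest copies are shown because a read within either stretch is told apart by a single base, given in capitals.
Rpsa: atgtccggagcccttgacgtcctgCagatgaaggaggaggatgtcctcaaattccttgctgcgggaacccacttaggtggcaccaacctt
Rpsa-ps10: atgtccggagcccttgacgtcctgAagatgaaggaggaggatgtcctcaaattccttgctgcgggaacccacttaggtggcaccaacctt
Rpl3: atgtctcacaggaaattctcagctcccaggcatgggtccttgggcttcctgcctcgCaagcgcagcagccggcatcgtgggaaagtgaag
Rpl3-ps1: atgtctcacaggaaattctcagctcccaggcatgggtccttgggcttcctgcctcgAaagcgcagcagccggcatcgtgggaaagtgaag

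Levels of different genes were compared per kb of exon. In control B6 mice, the median over cytosolic genes of the mPFC, BNST and vHPC was 2.796, 4.25 and 2.84 log2 CPM per kb. Over mitochondrial genes it was 3.29, 2.55 and 3.121. Exon length was summed over all annotated transcripts, and shared stretches, whose reads cannot be assigned, were left in. The cytosolic genes have more shared sequence, so these medians do not rank the 2 groups. The part of shared sequence in the levels of single genes was not tested. Rplp1, an acidic protein of the ribosomal stalk, was the highest cytosolic gene in each region, with 7.80 ± 0.17 log2 CPM per kb in the mPFC (SD, n = 6), 7.25 ± 0.47 in the BNST (SD, n = 5) and 7.44 ± 0.13 in the vHPC (SD, n = 6). The next highest were Rpl4 (6.98) and Rpl8 (6.34) in the mPFC, Rpl36 (6.90) and Rps15 (6.55) in the BNST, and Rpl8 (6.98) in the vHPC. The lowest were Rpl28 in the mPFC (−0.74), Rpl24 in the BNST (0.60) and Rps16 in the vHPC (−0.67). Among mitochondrial genes, Mrpl41 was highest in the mPFC (5.24) and vHPC (5.47) and Mrpl12, which also binds the mitochondrial RNA polymerase, in the BNST (4.57), while Mrpl23 was lowest in each region (−0.79, −0.55 and −0.07 in the mPFC, BNST and vHPC).

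**Figure D1:**
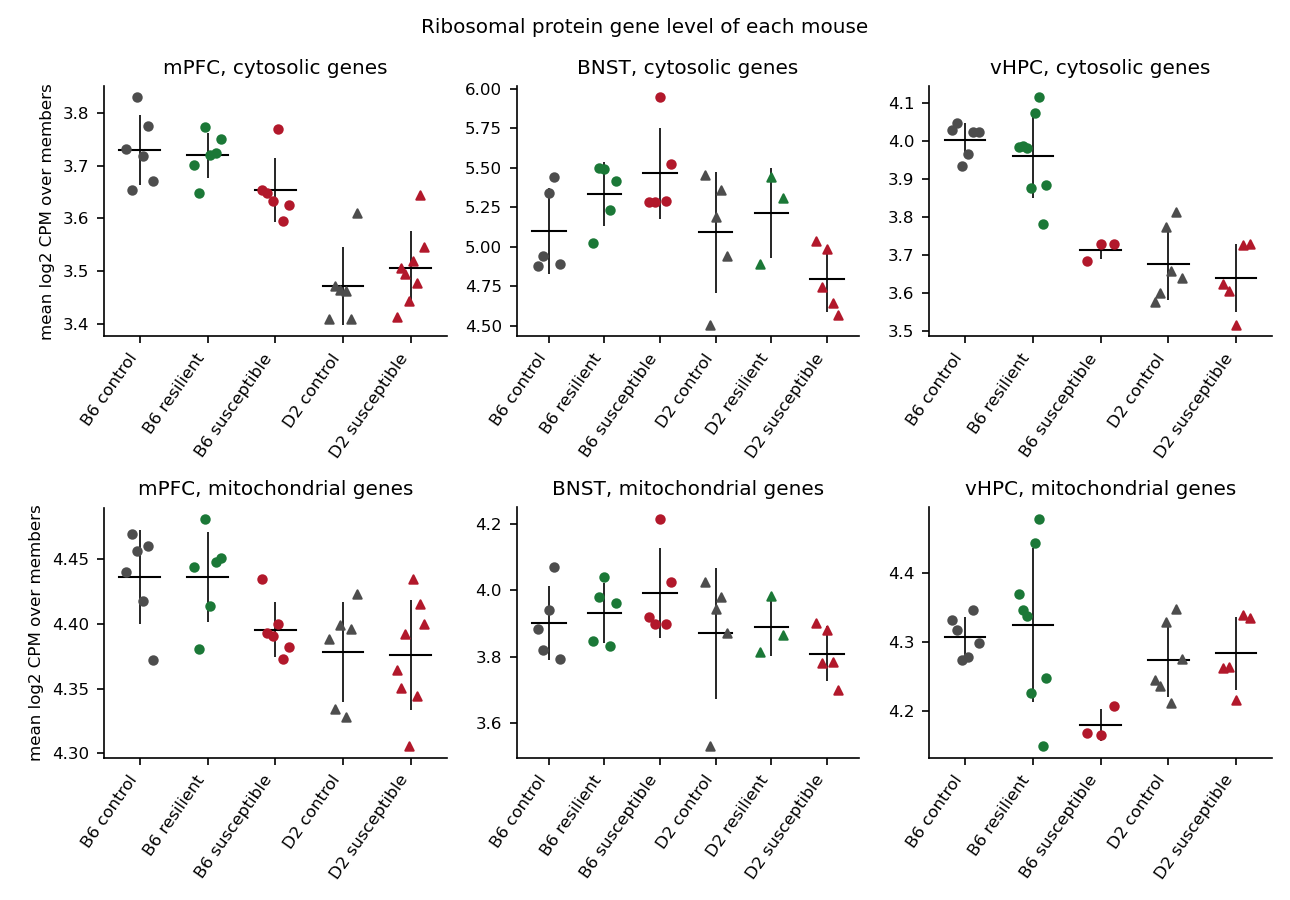
Mean log2 CPM over the tested cytosolic (upper row) and mitochondrial (lower row) ribosomal protein genes in each mouse, by region and group; points are mice, the bar is the group mean and the line its SD. In the BNST each defeated group overlaps the controls of its strain, whereas in the vHPC the 3 susceptible B6 mice (3.68 to 3.73) lie below all control B6 mice (3.93 to 4.05) for cytosolic genes.

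The mean over members was taken as a level per mouse to show the spread. In the mPFC, the cytosolic level was 3.65 to 3.83 log2 CPM in control, 3.65 to 3.77 in resilient and 3.59 to 3.77 in susceptible B6 mice, and 3.41 to 3.61 in control and 3.41 to 3.64 in susceptible D2 mice. In the vHPC, it was 3.93 to 4.05 in control, 3.78 to 4.11 in resilient and 3.68 to 3.73 in susceptible B6 mice, and 3.57 to 3.81 in control and 3.52 to 3.73 in susceptible D2 mice. In the BNST, it was 4.88 to 5.44 in control, 5.02 to 5.49 in resilient and 5.28 to 5.94 in susceptible B6 mice, and 4.51 to 5.45 in control, 4.89 to 5.44 in resilient and 4.57 to 5.04 in susceptible D2 mice. Thus the D2 control mice lay below the B6 control mice in the mPFC and vHPC, where the groups did not overlap, and not in the BNST. This level is a mean, which a few genes with large differences can move. The median difference over cytosolic genes was −0.11 in the mPFC and −0.041 in the vHPC, with 5 and 10 genes more than 1 below it. The mitochondrial level was narrower. It was 4.37 to 4.47 in control B6 and 4.33 to 4.42 in control D2 mice in the mPFC, 4.27 to 4.35 and 4.21 to 4.35 in the vHPC, and 3.79 to 4.07 and 3.53 to 4.02 in the BNST.

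The comparison of control mice between strains asks how the genetic background sets these genes without stress. In the mPFC, 23 cytosolic genes were lower and 1 was higher in D2 than in B6 mice (29.3% of 82), while 27.8% of all genes were called and 14.4% were called lower. Of mitochondrial genes, 13 were lower and 4 higher (22.4% of 76). In the vHPC, 22 cytosolic genes were lower and 12 higher (42.5% of 80), and 20 mitochondrial genes were lower and 16 higher (47.4% of 76), while 59.3% of all genes were called and 29.1% were called lower. In the BNST, 3 cytosolic genes were lower (3.70% of 81), and 2 mitochondrial genes were lower and 1 higher (3.90% of 77), while 2.51% of all genes were called. The share of members called was thus near that of all genes in the mPFC and BNST and under it in the vHPC. Their median log2 difference was −0.11 for cytosolic and −0.041 for mitochondrial genes in the mPFC, −0.041 and −0.026 in the vHPC, and 0.082 and −0.0075 in the BNST.

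**Figure D2:**
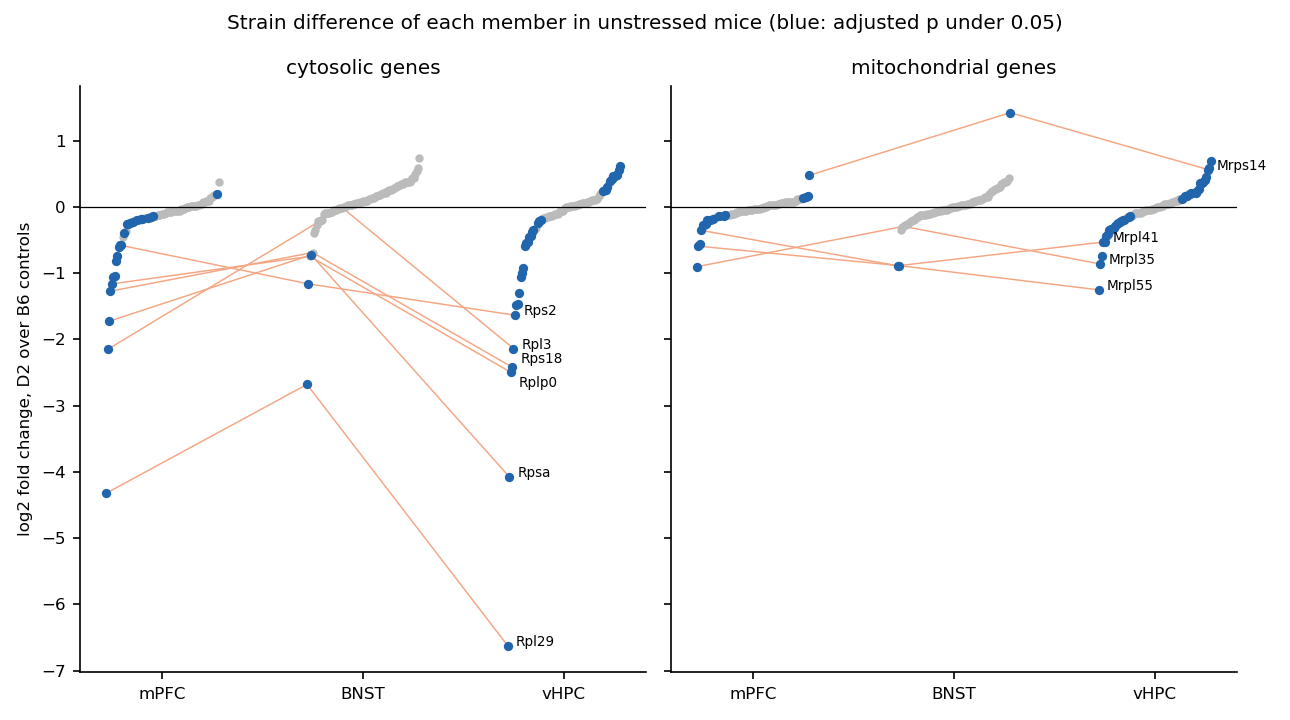
Log2 difference between D2 and B6 control mice of each tested ribosomal protein gene, by region and group of genes; blue points passed an adjusted p of 0.05, and lines join genes named in the text. Most genes lie near 0, and Rpl29 is the lowest gene in each region (−2.68 in the BNST, −4.32 in the mPFC and −6.63 in the vHPC).

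What stood out were single genes. Of the 155 members tested in all regions, 6 passed the test in each of them (3.87%), 20 in 2 regions (12.9%), 58 in 1 region (37.4%) and 71 in none (45.8%). Of the 16042 genes tested in all regions, these shares were 1.93%, 20.4%, 45.25% and 32.5%. The 6 genes each moved in 1 direction: Rpl29, Rpsa, Rps2, Mrpl41 and Mrpl55 were lower and Mrps14 was higher in D2 mice. Of the 20, 18 were lower and 2 (Rpl15 and Mrpl37) higher in both regions. A distance of more than 1 from the group's median was reached by 5 cytosolic genes in the mPFC, 10 in the vHPC and 2 in the BNST, all lower in D2 mice and all called, and by Mrpl55 in the vHPC and Mrps14 in the BNST among mitochondrial genes.

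Rpl29 (chr9:106429454-106431568), a large subunit protein, had the largest difference. In the BNST, the 5 control B6 mice had 5.42, 5.87, 6.11, 6.60 and 5.25 log2 CPM (629 to 1289 reads), and the 5 control D2 mice 3.39, 2.16, 3.56, 3.22 and 3.53 (53 to 213 reads). In the mPFC, the lowest, median and highest mouse had 4.46, 4.56 and 4.65 in the B6 and −0.01, 0.14 and 0.59 in the D2 group. In the vHPC, they had 5.76, 5.99 and 6.19 in the B6 and −1.33, −0.58 and 0.05 in the D2 group. The strains did not overlap in any region. The log2 difference was −2.68 (SE 0.30, adjusted p = 6.42e-07) in the BNST, −4.32 (SE 0.12, adjusted p = 7.08e-22) in the mPFC and −6.63 (SE 0.19, adjusted p = 5.89e-20) in the vHPC. The vHPC values of D2 mice are under 1 CPM and rest on few reads, so the size of that difference is less certain than its direction.

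Rpsa also fell below the B6 range in D2 mice. In the BNST, control B6 mice had 5.66, 5.76, 5.90, 6.14 and 5.65 log2 CPM (759 to 938 reads) and control D2 mice 5.44, 4.26, 5.03, 5.56 and 4.90 (229 to 633 reads). In the mPFC, the lowest, median and highest were 3.47, 3.597 and 4.05 in B6 and 1.65, 1.93 and 2.305 in D2 mice, and in the vHPC 5.65, 5.89 and 6.12 against 1.45, 1.83 and 2.22. The groups were separate in each region, narrowly in the BNST. The log2 difference was −0.73 (SE 0.17, adjusted p = 0.0144), −1.73 (SE 0.12, adjusted p = 7.06e-13) and −4.07 (SE 0.13, adjusted p = 5.07e-19) in the BNST, mPFC and vHPC. Rps2 (chr17:24718116-24721929), a small subunit protein, had 5.42, 5.62, 5.43, 5.90 and 5.62 log2 CPM in control B6 and 4.87, 3.98, 4.34, 4.29 and 4.602 in control D2 mice in the BNST. These ranges did not overlap, and the log2 difference was −1.16 (SE 0.16, adjusted p = 1.59e-05) there, −0.58 (SE 0.094, adjusted p = 2.08e-05) in the mPFC and −1.64 (SE 0.080, adjusted p = 2.83e-15) in the vHPC.

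The read counts on the pseudogenes moved the opposite way for some of these genes. Rpsa-ps10 had 8 to 14 reads in control B6 mice of the BNST (−0.83, −0.52, −0.88, 0.12 and −0.40 log2 CPM) and 44 to 287 reads in control D2 mice (4.34, 1.89, 3.99, 4.191 and 3.67). It was also higher in D2 mice in the mPFC (5.18 to 5.85 against 4.24 to 4.84) and vHPC (5.97 to 6.26 against 3.64 to 4.25). Added together, Rpsa and its listed pseudogenes had 58.9 ± 8.7 CPM in B6 and 49.1 ± 17.5 CPM in D2 control mice in the BNST (SD, n = 5 each). In the mPFC the sum was 35.9 ± 4.6 in B6 and 52.5 ± 7.4 in D2 mice, and in the vHPC it was 91.0 ± 10.16 in B6 and 73.1 ± 4.7 in D2 mice (SD, n = 6 each), so the direction of the sum in the mPFC was opposite to that of the gene alone. In the BNST, the sums of the strains overlapped.

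Rpl3 was lower in D2 mice in the mPFC and vHPC but not in the BNST. In the BNST, its control values were 5.67, 5.86, 5.90, 5.67 and 5.397 log2 CPM in B6 and 5.696, 6.19, 5.49, 5.26 and 5.69 in D2 mice, which overlap (log2 difference −0.01, SE 0.18, adjusted p = 0.984). Rpl3-ps1, however, had 4 to 6 reads in the B6 and 83 to 390 reads in the D2 mice of the BNST, a log2 difference of 5.49. In the mPFC, Rpl3 had 5.18, 5.33 and 5.39 (lowest, median and highest) in B6 and 2.92, 3.11 and 3.56 in D2 mice, and in the vHPC 5.74, 5.79 and 6.05 against 3.56, 3.72 and 3.90. Both differences passed the test (−2.15, SE 0.080, adjusted p = 7.13e-19 in the mPFC, and −2.14, SE 0.073, adjusted p = 1.29e-18 in the vHPC). Here Rpl3-ps1 stood at 5.81 to 6.30 in B6 and 6.32 to 6.51 in D2 mice of the mPFC, above Rpl3 itself. The sum of Rpl3 and its pseudogenes was 111 ± 7.3 CPM in B6 and 94.0 ± 5.7 CPM in D2 mice of the mPFC and 136 ± 8.7 and 114 ± 8.1 in the vHPC (SD, n = 6 each), a far smaller ratio than that of Rpl3 alone (39.7 ± 2.2 against 9.0 ± 1.5 CPM in the mPFC). Which part of either difference is a change of the message and which is a different placing of the reads of a strain that differs from the reference genome was not tested.

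**Figure D3:**
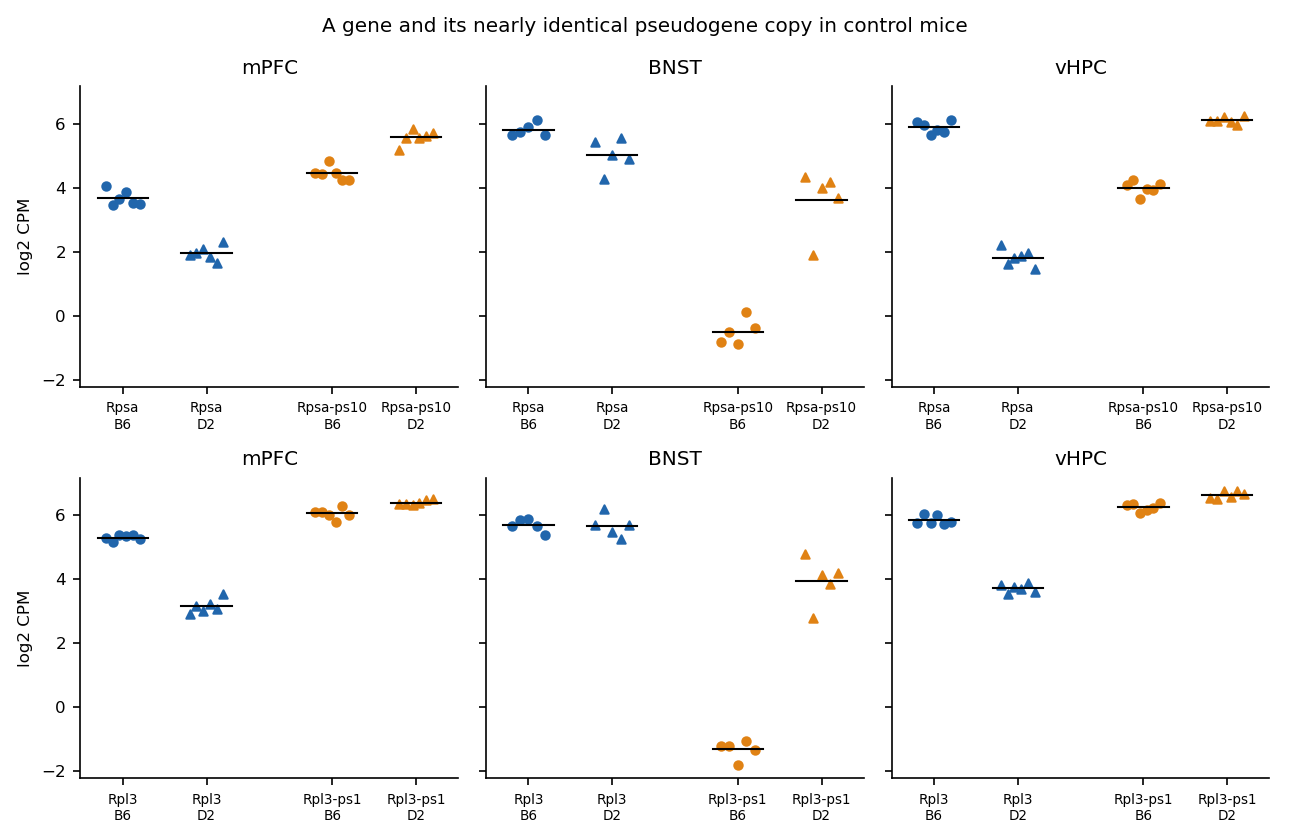
Log2 CPM of Rpsa, Rpl3 and a near-identical pseudogene of each in control B6 and D2 mice of the 3 regions; points are mice and bars are group means. The genes are lower and Rpsa-ps10 is higher in D2 mice, except Rpl3 in the BNST, where the strains overlap (5.397 to 5.90 in B6 and 5.26 to 6.19 in D2 mice).

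For Rpl29 and Rps2, the sums with listed pseudogenes did not overlap between control mice of the strains where any could be added. For Rplp0, this held in the vHPC only. In the BNST its sums overlapped (33.4 ± 7.01 CPM in B6 and 20.1 ± 6.67 in D2 controls, SD, n = 5 each). These sums were not tested. Rpl29 with its pseudogenes had 61.3 ± 23.5 CPM in B6 and 10.02 ± 3.2 CPM in D2 control mice of the BNST (SD, n = 5 each). The mPFC table lists no pseudogene named after Rpl29, Rps2, Rplp0 or Rps18, and the vHPC table none named after Rpl29 or Rps18. Rps2 had 49.4 ± 6.9 and 22.3 ± 5.1 CPM with its pseudogenes in the BNST (SD, n = 5 each). Rplp0, the scaffold of the ribosomal stalk, differed by −1.16 (SE 0.11, adjusted p = 7.04e-10) in the mPFC, −2.50 (SE 0.088, adjusted p = 3.37e-18) in the vHPC and −0.75 (SE 0.23, adjusted p = 0.101) in the BNST, and with its pseudogene it still had 161 ± 5.1 CPM in B6 against 29.5 ± 3.7 CPM in D2 mice of the vHPC (SD, n = 6 each). Rps18 differed by −1.27 (SE 0.095, adjusted p = 7.67e-12) in the mPFC, −2.42 (SE 0.074, adjusted p = 1.57e-19) in the vHPC and −0.69 (SE 0.26, adjusted p = 0.221) in the BNST. Rpl14 differed by −1.47 (SE 0.089) in the vHPC, with 58.5 ± 3.3 CPM in B6 and 21.2 ± 2.5 CPM in D2 control mice. Its sum with the listed pseudogene was 124 ± 6.9 and 96.8 ± 8.7 CPM there (SD, n = 6 each). Copies that the annotation does not name after the gene are not in these sums. Of the windows of Rpl29, 42.6% were shared with other transcripts, and of those of Rps2, 60%.

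The mitochondrial genes that differed in all regions have no shared windows. Mrps14 (chr1:160195215-160202170), of the small subunit, had 3.19 ± 0.46 log2 CPM in control B6 mice (2.65 to 3.64) and 4.55 ± 0.62 in control D2 mice (3.98 to 5.61) of the BNST (SD, n = 5 each). In the mPFC it had 5.34 to 5.49 in B6 and 5.78 to 6.06 in D2 mice. The strains did not overlap in either region, and the log2 difference was 1.42 (SE 0.25, adjusted p = 0.000459) in the BNST, 0.48 (SE 0.050, adjusted p = 1.15e-08) in the mPFC and 0.56 (SE 0.075, adjusted p = 4.92e-07) in the vHPC, where it was no longer called with library set as a covariate. Mrpl41 (chr2:24974117-24975098), of the large subunit, had 3.81 to 4.23 in B6 and 2.802 to 3.38 in D2 mice of the BNST, again without overlap. It differed by −0.89 (SE 0.16, adjusted p = 0.000501) there, by −0.36 in the mPFC and by −0.53 in the vHPC. Mrpl55 (chr11:59202486-59206134), also of the large subunit, had 4.57 to 4.74 in B6 and 3.92 to 4.14 in D2 mice of the mPFC (log2 difference −0.59, SE 0.043, adjusted p = 3.11e-12) and 4.62 to 4.85 against 3.39 to 3.68 in the vHPC (−1.25, SE 0.073, adjusted p = 1.08e-13). In the BNST its ranges overlapped (3.51 to 4.32 against 2.29 to 3.57), and the log2 difference was −0.89 (SE 0.21, adjusted p = 0.0167).

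Several other genes had higher values in D2 mice. Rpl15, a large subunit protein, had 5.92, 6.00 and 6.03 log2 CPM (lowest, median and highest) in B6 and 6.12, 6.18 and 6.21 in D2 control mice of the mPFC, a difference of 0.19 (SE 0.033, adjusted p = 6.15e-05), and in the vHPC the difference was 0.48 (SE 0.068, adjusted p = 1.17e-06). In the vHPC, Rps27 differed by 0.62 (SE 0.11, adjusted p = 3.96e-05), Rps10 by 0.55 (SE 0.079, adjusted p = 1.61e-06) and Mrpl20 by 0.70 (SE 0.11, adjusted p = 5.05e-06), each without overlap. With library set as a covariate, 12 cytosolic and 4 mitochondrial genes were called between strains in the vHPC, all lower in D2 mice, with 8.4% of all genes called, and the calls of Rpl15, Rps27, Rps10, Mrpl20, Rplp2 and Mrps12 there were lost. In that fit, control B6 mice of the vHPC are compared through 1 mouse, as no other shared a library set with other groups. It therefore cannot decide which of these calls hold. None of Rps27, Rps10 and Mrpl20 passed the test in the mPFC or BNST. Rplp2, of the stalk, was higher in D2 mice of the vHPC (0.46, SE 0.077, adjusted p = 1.38e-05), as was Mrps12 (0.21, SE 0.087, adjusted p = 0.0357), while Rpl22 was lower in the mPFC (−0.19, SE 0.062, adjusted p = 0.0218), and Mrpl3 was lower in the mPFC (−0.25) and vHPC (−0.41). Rps4x, Rpl10, Rpl39, Rplp1, Mrpl12 and Mrps2, which were to be described whatever their values, passed the test between strains in none of the regions (log2 differences from −0.17 for Rps4x in the vHPC to 0.58 for Rpl39 in the BNST, where the SE was 0.26).

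The next comparison asks what defeat does in the mPFC. In susceptible B6 mice, 1 cytosolic gene (1.22% of 82) and 1 mitochondrial gene (1.32% of 76) fell, while 2.22% of all genes were called. Rpl36a, a large subunit protein, had 3.48, 3.55 and 3.59 log2 CPM (lowest, median and highest) in control and 3.119, 3.29 and 3.39 in susceptible mice, which did not overlap (−0.27, SE 0.064, adjusted p = 0.0268). Mrpl55 had 4.57 to 4.74 in control and 4.45 to 4.55 in susceptible mice, again without overlap (−0.16, SE 0.043, adjusted p = 0.0419). The other members shifted little: 62 of 82 cytosolic and 53 of 76 mitochondrial genes had a negative log2 change, with a median of −0.087 and −0.047. Against resilient mice, 0 members passed in limma, while 2.02% of all genes were called, and at an unadjusted p under 0.05 there were 9 lower cytosolic and 13 lower mitochondrial genes and 0 higher. Neither of the 2 called genes stayed past the threshold with library set as a covariate.

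In resilient B6 mice, susceptible D2 mice and the interaction of strain and stress in the mPFC, limma called 0 members and 0% of all genes. At an unadjusted p under 0.05, there were 8 cytosolic and 0 mitochondrial genes in resilient B6 mice, 5 and 1 in susceptible D2 mice, and 9 and 7 in the interaction. Oligodendrocyte markers moved with the strain and stress comparisons of the mPFC. All 6 markers were lower in susceptible than in control B6 mice (median −0.73) and in D2 than in B6 control mice (median −0.86). Their mean level per mouse was 6.96 to 7.97 log2 CPM in control B6, 6.49 to 7.1 in susceptible B6 and 6.36 to 6.95 in control D2 mice. Their part in the ribosomal protein values was not tested, and in bulk tissue fewer cells of a type and less RNA per cell cannot be told apart.

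In the vHPC, more members fell than rose in susceptible B6 mice, where a large share of all genes was called. Of cytosolic genes, 32 fell and 1 rose (41.2% of 80), and of mitochondrial genes, 21 fell and 5 rose (34.2% of 76), while 40.6% of all genes were called and 20.1% were called lower. The cytosolic genes were thus called as often as genes in general, and 32 of the 33 called fell. The median log2 change was −0.20 over cytosolic and −0.14 over mitochondrial genes, compared with −0.010 over all genes and −0.145 over genes with transcripts of under 1500 bases. Against resilient mice, 40 cytosolic genes were lower and 1 higher (51.2%), and 21 mitochondrial genes were lower and 2 higher (30.3%), while 27.6% of all genes were called and 13.6% were called lower. The median difference was −0.27 and −0.17, compared with −0.012 over all genes and −0.166 over short transcripts.

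Resilient B6 mice changed less. Against controls, 11 of 80 cytosolic genes fell and 1 rose, and 5 of 76 mitochondrial genes fell and 1 rose, while 5.9% of all genes were called lower and 4.94% were called higher. After quantile normalization, 5 cytosolic genes rose and 11 fell, and 2 mitochondrial genes rose and 4 fell. In susceptible D2 mice, 8 cytosolic genes (10% of 80) and 3 mitochondrial genes (3.95% of 76) fell and 0 rose, while 4.28% of all genes were called and 2.74% were called lower. The median over cytosolic genes was 0.051 in resilient B6 and 0.022 in susceptible D2 mice, so the genes that fell were few and the others did not follow. In the fit with library set as a covariate, Rpl29 alone was called in resilient B6 mice (0.21% of all genes called), and 0 members in susceptible D2 mice (0.0153%) or in susceptible against resilient B6 mice (0%), all by limma. These comparisons share control mice within a strain.

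The interaction, which tests whether the change of susceptible D2 mice differs from that of susceptible B6 mice, called 7 cytosolic genes (8.75% of 80), all positive, and 0 mitochondrial genes, while 0.782% of all genes were called and 0.557% were called positive. At an unadjusted p under 0.05, 30 cytosolic genes were positive and 0 negative, and 13 mitochondrial genes were positive and 1 negative. The 7 genes are Rpl29, Rpsa, Rplp0, Rps18, Rpl3, Rps3a1 and Rps2, and each also passed the test in all 3 defeated groups and between strains. The interaction of Rpl29 was 1.37 (SE 0.31, adjusted p = 0.0301), of Rpsa 1.07 (SE 0.21, adjusted p = 0.0129) and of Rplp0 0.82 (SE 0.14, adjusted p = 0.00468). A positive interaction here means a smaller fall in D2 mice, whose control values were already low. With library set as a covariate, limma called 0 members in the interaction and 0.00511% of all genes, and leaving out 1 mouse gave 1 to 9 cytosolic calls, the lowest number without susceptible B6 replicate 1.

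Rpl29 had 5.76, 5.99 and 6.19 log2 CPM (lowest, median and highest) in control and 3.55, 3.83 and 4.11 in resilient B6 mice of the vHPC. The 3 susceptible B6 mice had 2.81, 3.06 and 3.147. Control D2 mice had −1.33, −0.58 and 0.05, and the 5 susceptible D2 mice −1.83, −2.70, −2.84, −2.01 and −1.86. None of the 5 groups overlapped another. The log2 change was −2.98 (SE 0.23, adjusted p = 6.04e-10) in susceptible B6, −2.17 (SE 0.18, adjusted p = 4.14e-09) in resilient B6 and −1.60 (SE 0.20, adjusted p = 1.11e-05) in susceptible D2 mice.

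Rpsa followed the same order, with 5.65, 5.89 and 6.12 log2 CPM in control and 4.26, 4.697 and 5.15 in resilient B6 mice. The 3 susceptible B6 mice had 3.69, 3.97 and 3.94, control D2 mice 1.45, 1.83 and 2.22, and the 5 susceptible D2 mice 1.05, 0.63, 0.74, 0.79 and 1.1. Again no group overlapped another. The changes were −2.02 (SE 0.16), −1.17 (SE 0.12) and −0.95 (SE 0.14) in susceptible B6, resilient B6 and susceptible D2 mice, with adjusted p = 7.98e-10, 1.95e-07 and 7.27e-05. The pseudogene Rpsa-ps10 went the other way, with 3.64, 4.02 and 4.25 in control B6 mice, 4.69, 4.78 and 4.86 in the susceptible B6 mice and 5.97, 6.09 and 6.26 in control D2 mice. In susceptible D2 mice it had 6.49 to 6.85.

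The other 5 genes fell in the same order of groups. The mean of Rplp0 was 7.33, 6.62, 5.97, 4.83 and 4.29 log2 CPM in B6 control, resilient and susceptible mice, followed by D2 controls and the susceptible D2 group. For Rps18 the means were 5.02, 4.31, 3.74, 2.6 and 2.02, and for Rpl3 5.86, 5.24, 4.73, 3.72 and 3.17. Thus, with the gene alone counted, defeated B6 mice stood between control B6 and control D2 mice in each of these genes. Rps3a1 had means of 6.02, 5.61, 5.15, 4.54 and 4.23, and Rps2 of 5.78, 5.35, 4.92, 4.14 and 3.84. In susceptible B6 mice the changes ranged from −0.86 (Rps2, SE 0.098) to −1.35 (Rplp0, SE 0.11). With listed pseudogenes added, Rpl3 had 136 ± 8.7, 132 ± 17.3 and 102 ± 2.5 CPM in control, resilient and susceptible B6 mice (SD). In control and susceptible D2 mice it had 114 ± 8.1 and 117 ± 7.1 CPM (SD). The sums still fell in the order above for Rplp0 (161, 99.4, 63.4, 29.5 and 21.2 CPM) and Rps2 (58.8, 45.1, 35.0, 22.8 and 20.1 CPM). They did not for Rpl3, nor for Rpsa (91.0, 59.1, 43.7, 73.1 and 102 CPM). For both, the sum of susceptible B6 mice lay below that of control D2 mice.

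**Figure D4:**
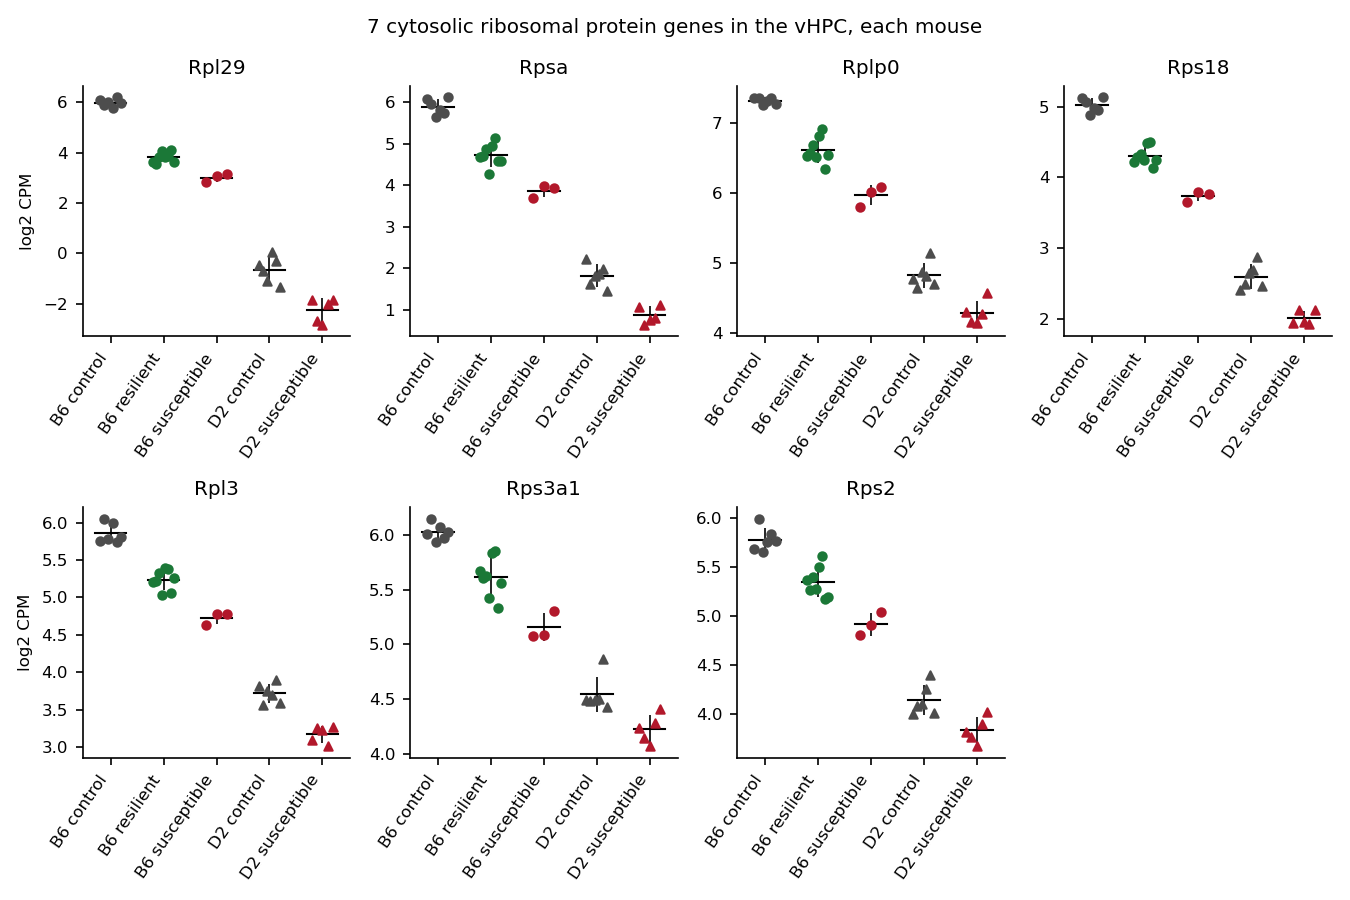
Log2 CPM of the 7 cytosolic genes called in the vHPC interaction, in each mouse of the 5 groups; points are mice, the bar is the mean and the line the SD. In each gene the means fall from control through resilient to susceptible B6 mice and on to control and susceptible D2 mice, for Rpl29 from 5.98 to −2.25.

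The same fall was not seen in the other regions. In the mPFC, the 7 genes changed by −0.25 to 0.11 in susceptible B6 mice and limma called 0, although Rpl29 and Rps3a1 reached an unadjusted p under 0.05. In the BNST they changed by 0.01 to 0.79 and edgeR called 0, and of them Rps3a1 (adjusted p = 0.656) reached an unadjusted p under 0.05. These are different libraries and kits, and the difference between regions was not tested.

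Library sets are tied to the groups of the vHPC. Of its 10 sets of library preparation, 0 held control B6 mice together with defeated ones, 1 held control and defeated D2 mice, and 1 held susceptible and resilient B6 mice. Defeat and library set thus cannot be told apart in B6 mice, and the authors had adjusted the values for library set. Only 1 control B6 mouse shared a set with another group (2 susceptible D2 mice). With library set as a covariate, comparisons with control B6 mice rest on that mouse and cannot decide which calls hold. In the set with a control and a susceptible D2 mouse, Rpl29 had −1.33 and −1.86 log2 CPM, and the susceptible B6 mouse of that set had 2.81. In the set with both defeated B6 groups, the cytosolic level was 3.98 over the 2 resilient mice and 3.73 in the susceptible mouse. With library set as a covariate, 7 cytosolic genes were called in susceptible B6 mice (all of them the 7 above) and 0 mitochondrial genes, with 1.03% of all genes called, the log2 change was −3.76 for Rpl29 and −1.30 for Rps3a1, and the median SE of the cytosolic genes was 0.298 in place of 0.104. A pseudogene chosen after its values were seen, Rps15a-ps8, had 0 to 1 reads in control B6 and 12 to 19 reads in control D2 mice of the BNST. In the vHPC it had −7.75 to −6.81 log2 CPM in control, −4.96 to −3.32 in resilient and −3.20 to −2.37 in susceptible B6 mice, and 1.72 to 2.92 in control and 3.90 to 5.18 in susceptible D2 mice. Its defeated B6 mice thus also stood between the strains, and the part of the adjustment in these values was not tested.

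Among mitochondrial genes of the vHPC, Mrpl55 had 4.62 to 4.85 log2 CPM in control, 4.145 to 4.64 in resilient and 3.92 to 4.13 in susceptible B6 mice. It fell in all defeated groups, by 0.69 in susceptible B6 (SE 0.090, adjusted p = 2.41e-06), 0.37 in resilient B6 (SE 0.068, adjusted p = 0.000449) and 0.27 in susceptible D2 mice (SE 0.077, adjusted p = 0.0403). Mrps33, of the small subunit, had 2.84 to 3.153 in control and 2.52 to 2.55 in susceptible B6 mice, and fell by 0.47 (SE 0.085, adjusted p = 0.000169). Mrpl35 fell by 0.26 in resilient B6 (SE 0.059, adjusted p = 0.00447) and by 0.24 in susceptible D2 mice (SE 0.066, adjusted p = 0.0356). Few genes rose. Mrpl14 rose by 0.52 (SE 0.14, adjusted p = 0.00515) and Mrps2 by 0.45 (SE 0.14, adjusted p = 0.0127) in susceptible B6 mice, where Mrps2 had 3.86 to 4.09 against 3.405 to 3.79 in control mice. Rpl17, of the large subunit, rose by 0.32 (SE 0.11, adjusted p = 0.0230), although its susceptible mice (1.131, 1.45 and 1.51) overlapped the controls (0.91 to 1.22). In resilient B6 mice Mrps5 rose by 0.15 (SE 0.045, adjusted p = 0.0359), which reversed to −0.014 with library set as a covariate. Against resilient mice, susceptible B6 mice had lower Mrpl34 (−0.39, SE 0.11, adjusted p = 0.0158) and Mrpl28 (−0.38, SE 0.12, adjusted p = 0.0206) and higher Mrpl37 (0.19, SE 0.052, adjusted p = 0.0116). The call of Rpl17 and those of the mitochondrial genes after defeat were all lost with library set as a covariate.

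Several markers moved with the vHPC groups. The 6 oligodendrocyte markers were all lower in susceptible B6 than in control B6 mice (median −0.64), and 3 of 6 were lower in resilient B6 mice and 2 of 6 in susceptible D2 mice. Their mean level per mouse was 8.21 to 8.41 log2 CPM in control, 7.75 to 8.34 in resilient and 7.41 to 7.63 in susceptible B6 mice. In control D2 mice it was 6.83 to 7.48. Of endothelial markers, 4 of 5 were lower in susceptible B6 mice (median −0.54). Of choroid plexus markers 1 of 6 was lower (median −2.05), with a mean level per mouse of 1.87 to 6.09 log2 CPM in control and 1.01 to 2.34 in susceptible mice. Of neuron markers, 4 of 6 were higher (median 0.21). Their part in the fall of the ribosomal protein genes was not tested.

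In the BNST, susceptible mice of the 2 strains tended to opposite sides, and few tests passed. Changes were measured less precisely here. For susceptible against control B6 mice, the median SE over all genes was 0.256, compared with 0.086 in the mPFC and 0.098 in the vHPC. In susceptible B6 mice, 75 of 81 cytosolic genes had a positive log2 change (median 0.44) and edgeR called 0, as did DESeq2, with 0% of all genes called. At an unadjusted p under 0.05, 25 cytosolic genes were higher and 0 lower, and 6 mitochondrial genes were higher and 2 lower. In susceptible D2 mice, 77 of 81 cytosolic genes had a negative change (median −0.38), and both tools called 0 members, with 0% of all genes called by edgeR. At an unadjusted p under 0.05, 18 cytosolic and 4 mitochondrial genes were lower and 0 higher. The mitochondrial medians were 0.13 and −0.076. Without TMM factors the median of all genes was −0.253 in susceptible B6 and 0.275 in susceptible D2 mice, where the cytosolic median was 0.185 and −0.070 and the mitochondrial median −0.144 and 0.231. The sign of the mitochondrial medians thus depends on the scaling. Relative to the median of all genes, the cytosolic median was 0.43 higher in B6 with and 0.44 higher without TMM factors, and 0.34 lower in D2 mice both ways. The mitochondrial median was 0.12 and 0.11 higher in B6 and 0.038 and 0.044 lower in D2 mice.

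For the interaction, edgeR called 0 members and 0% of all genes, with 44 cytosolic genes lower and 0 higher at an unadjusted p under 0.05, and 10 mitochondrial genes lower and 1 higher. The median was −0.84 over cytosolic and −0.20 over mitochondrial genes, compared with −0.327 over genes with short transcripts and −0.041 over all genes. DESeq2 called 1.27% of all genes and 1.06% as lower, and among them 9 of 81 cytosolic genes, all negative (Rpl11, Rpl22, Rpl23, Rpl31, Rpl35a, Rpl37, Rpl39, Rps7 and Rps24), of which Rpl22 and Rpl39 are named by rule and the others because the count is given. Rpl22, an RNA binding protein of the large subunit, had 5.31, 5.2, 5.47, 5.73 and 5.31 log2 CPM in control and 5.90, 5.90, 6.17, 5.72 and 6.14 in susceptible B6 mice. It had 5.85, 5.55, 5.58, 5.94 and 5.47 in control and 5.603, 5.29, 5.39, 5.33 and 5.22 in susceptible D2 mice. Of the 5 susceptible B6 mice, 4 lay above all control B6 mice, and of the 5 susceptible D2 mice, 4 lay below all control D2 mice, and the interaction in DESeq2 was −0.90 (adjusted p = 0.00310). Rpl39 had 3.11, 2.97, 3.51, 3.47 and 2.84 in control B6, 3.17, 3.80, 4.22, 3.38 and 4.21 in susceptible B6, 3.44, 4.74, 3.25, 3.71 and 3.17 in control D2 and 3.06, 2.87, 2.75, 2.91 and 2.47 in susceptible D2 mice. Here the D2 groups did not overlap and the B6 groups did (DESeq2 interaction −1.61, adjusted p = 0.00810). Rps14 stood apart with a positive interaction of 0.54 (SE 0.41, adjusted p = 0.673), and had overlapping values in all groups.

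**Figure D5:**
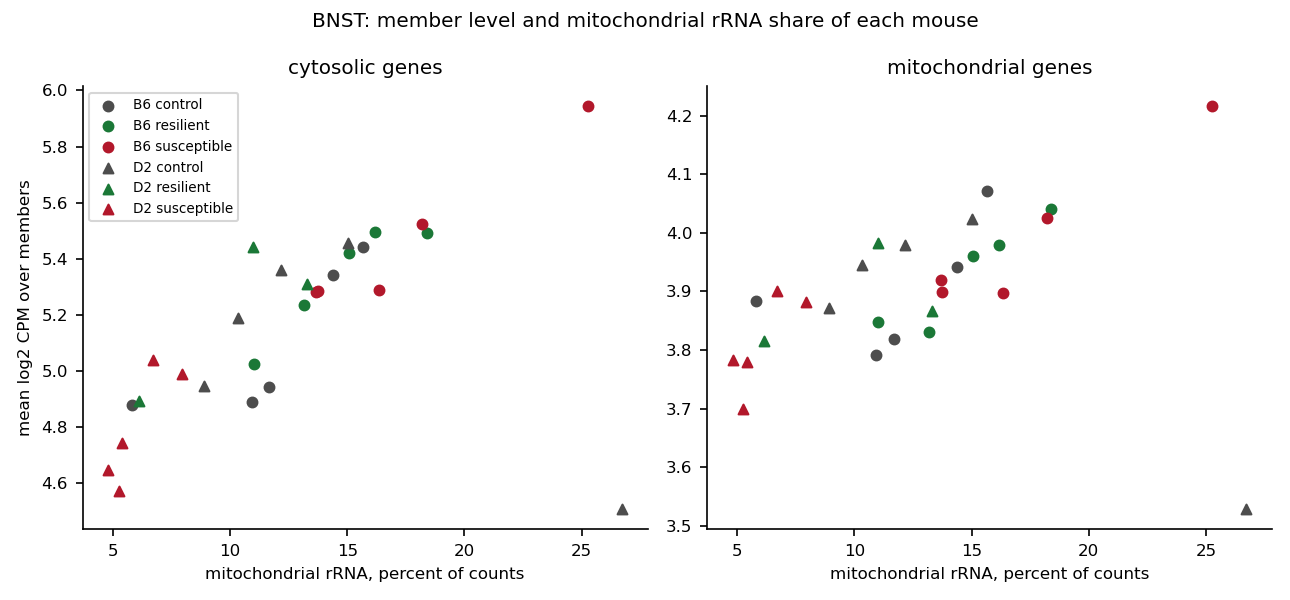
Mean log2 CPM over cytosolic (left) and mitochondrial (right) ribosomal protein genes of each BNST mouse against the percentage of counted reads on the mitochondrial ribosomal RNA genes; colours mark the groups. The susceptible D2 mice lie at 4.795 to 7.94% and the susceptible B6 mice at 13.7 to 25.3%.

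Resilient mice of the BNST gave 0 calls in edgeR and DESeq2 among members, with 0% of all genes called by edgeR in either strain. At an unadjusted p under 0.05 there were 0 cytosolic genes and 1 lower mitochondrial gene in resilient B6 mice, and 0 and 2 lower in resilient D2 mice. Against resilient mice, susceptible B6 mice gave 0 calls among members in both tools, with 0.00571% of all genes called, and 4 higher cytosolic and 3 higher and 1 lower mitochondrial genes at an unadjusted p under 0.05. The share of reads on mitochondrial ribosomal RNA moved with the groups. It was 5.81 to 15.7% in control, 11.0 to 18.4% in resilient and 13.7 to 25.3% in susceptible B6 mice, and 8.90 to 26.7% in control, 6.13 to 13.3% in resilient and 4.795 to 7.94% in susceptible D2 mice. The susceptible B6 mouse with 25.3% had the highest cytosolic level (5.94), and the control D2 mouse with 26.7% the lowest (4.51). Oligodendrocyte markers had a median change of 0.68 in susceptible B6 and −0.86 in susceptible D2 mice, and thalamic markers −1.28 in susceptible D2 mice, with 0 of 6 and 0 of 4 called in each. Their part in the BNST values was not tested.

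Of 9 paralogs of the canonical subunits, 6 were tested in the mPFC and vHPC and 5 in the BNST. Per kb of exon in control B6 mice, Rpl7l1 had 3.54 log2 CPM in the mPFC, above the cytosolic median, and 2.21 in the BNST, below it. Rpl10l and Rpl39l had 0 to 1 reads in every BNST library and Rpl3l 1 to 20, and Rps27rt had 0 to 5 except 30 in 1 control D2 mouse. Rps27l fell by 0.69 in susceptible B6 mice of the vHPC (SE 0.15, adjusted p = 0.000774) and was lower in D2 than in B6 control mice there (−0.53, SE 0.12, adjusted p = 0.000511). Rpl22l1 was lower in susceptible than in resilient B6 mice (−0.36, SE 0.12, adjusted p = 0.0306). These calls of Rps27l and Rpl22l1 were lost with library set as a covariate. Rps4l, a retrocopy of Rps4x that is annotated as a transcribed pseudogene and so is not a member, had 2.19 to 2.76 log2 CPM in B6 and −1.15 to 1.199 in D2 control mice of the BNST. Its difference between strains was −1.81 in the BNST (adjusted p = 0.00329), −1.75 in the mPFC (adjusted p = 3.99e-11) and −1.79 in the vHPC (adjusted p = 1.90e-14).

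Genes that work with the ribosome were counted in the same comparisons, where 40.6% of all genes were called in susceptible B6 mice of the vHPC, 27.6% against resilient mice there, and 59.3% and 27.8% between strains in the vHPC and mPFC. Of 24 cytosolic translation factors, 7 rose and 9 fell in susceptible B6 mice of the vHPC (median −0.087), and 4 were higher and 10 lower than in resilient mice (median −0.14). In the mPFC, 2 of them fell in susceptible B6 mice (2.22% of all genes called), and 2 were higher and 5 lower in D2 than in B6 control mice. Of 26 genes of ribosome assembly and RNA polymerase I, 5 rose and 5 fell in susceptible B6 mice of the vHPC (median 0.010), 7 were higher and 7 lower between strains there, and 1 was higher and 8 lower between strains in the mPFC. Of 24 mitochondrial translation and transcription factors, 4 rose and 8 fell in susceptible B6 mice of the vHPC (median −0.11), 3 were higher and 8 lower between strains there, and 0 were higher and 7 lower between strains in the mPFC. In the BNST, edgeR called 0 genes of these lists in the stress comparisons, and between strains 1 assembly gene was lower. The 5 mitochondrial ribosome subunits that carry other names, such as Dap3 and Ptcd3, had 2 lower in susceptible B6 mice of the vHPC (median −0.21).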

How the data were processed

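Total RNA depleted of ribosomal RNA was sequenced from 88 samples. The authors trimmed reads, removed PCR duplicates, aligned to GRCm38 with STAR and counted reads on exons with HTSeq. The deposited BNST table holds whole read counts. The deposited mPFC and vHPC tables hold log2 CPM, which the authors filtered (1 CPM in 6 samples), passed through voom and corrected for library sets, in the vHPC also for sequencing sets, with ComBat.

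Here, BNST genes that reached 1 CPM in 6 or more libraries were scaled with TMM and fitted with edgeR 4.0.16 (robust quasi-likelihood), and log2 CPM used a prior count of 0.5. The mPFC and vHPC values were fitted with limma 3.58.1 (robust empirical Bayes). Each region was fitted with a mean per group over all its libraries, for 19 comparisons, 10 of them of defeated with control mice. The interaction was the change of susceptible D2 mice minus that of susceptible B6 mice. All tests were two-sided, p values were adjusted by Benjamini-Hochberg over all genes of a region, and an adjusted p under 0.05 made a gene called. R 4.3.3, DESeq2 1.42.0, Python 3.11.15, pandas 2.3.3 and NumPy 2.4.6 were used, and the fits were tested on simulated data. There, 200 genes were changed by a log2 of 1 in susceptible B6 mice. Of these, 93% were recovered in the mPFC, 92% in the vHPC and 37% in the BNST. A count of 0 calls in the BNST thus says less than in the other regions. Symbols and positions came from GENCODE M21 and start sites from RefSeq. Shared sequence was counted in windows of 96 bases, in steps of 8. In all, 81 mice were used, of which 7 appear in both the mPFC and the vHPC.

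The members, lists and comparisons were chosen with earlier results of these data known. Genes were named if they had the 2 highest or 2 lowest called changes of a comparison with all mice on 1 side of the other group's mean, lay more than 1 from their group's median, were among the 3 highest or lowest per kb, were paralogs, or were among 14 listed in advance. The alternatives were DESeq2, no TMM factors, other filters and prior count, quantile normalization, a covariate (library set, sequencing set or the prefix of the mouse IDs), only the compared groups in the fit, genes without shared sequence, and leaving out each mouse.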

Additional observations from a re-analysis of the deposited data

Results flagged for a closer look

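Of 112 groups of 4 to 10 mice tested for a mouse far from the others by Dixon's criterion, 9 had one, and chance gives about 1 in 20 groups. For the cytosolic level in the mPFC, susceptible B6 replicate 4 had 3.77 log2 CPM (the others 3.59 to 3.65), and control D2 replicate 6 had 3.61 (the others 3.41 to 3.47). In the BNST, susceptible B6 replicate 3 had the highest Rpl29 (6.98, the others 5.86 to 6.12) and Rplp0 (5.86, the others 4.88 to 5.16), and control D2 replicate 2 had the lowest Rpl29 (2.16, the others 3.22 to 3.56) and Rplp0 (3.06, the others 4.39 to 4.66). These are the BNST libraries of their groups with the most reads on mitochondrial ribosomal RNA (25.3% and 26.7%). Susceptible B6 replicate 5 of the BNST had the highest Rps2 (6.11, the others 5.58 to 5.69). In the mPFC, resilient B6 replicate 6 had the highest Rpsa (3.998, the others 3.71 to 3.76), as had susceptible B6 replicate 1 (3.76, the others 3.44 to 3.54).

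The change after defeat differed between the strains in 7 cytosolic genes of the vHPC, each with a larger fall in B6 than in D2 susceptible mice. These are values without pseudogenes, and the sum of Rpsa and its pseudogenes was higher in susceptible than in control D2 mice. The difference was 1.37 for Rpl29 (−2.98 in B6 and −1.60 in D2), 1.07 for Rpsa (−2.02 and −0.95), 0.82 for Rplp0 (−1.35 and −0.54) and 0.70 for Rps18 (−1.28 and −0.58). It was 0.59 for Rpl3 (−1.13 and −0.55), 0.56 for Rps2 (−0.86 and −0.30) and 0.55 for Rps3a1 (−0.87 and −0.32). With library set as a covariate 0 of them were called by limma, and without susceptible B6 replicate 1 only 1 cytosolic gene was called (1 to 9 over all mice left out in turn).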

How the results depend on the processing

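Values of the mPFC and vHPC give no counts, and in the vHPC library set and defeat are tied, which limits its stress results. No paired analysis was possible because replicate numbers follow accession order and no 2 groups compared share a mouse. With no filter on low counts, a mean log2 CPM of at least 1, pseudogene-annotated symbols counted or paralogs left out, the numbers of called members stayed within 1.5 times. The group means of the level per mouse were also taken with the median over members or, in the BNST, a prior count of 2. Of these values, 16 moved by at least the SD of their mice and 28 did not.

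With library set as a covariate, the members called (cytosolic and mitochondrial) were 0 and 0 in susceptible B6 mice of the mPFC, and in the vHPC 1 and 0 in resilient B6, 7 and 0 in susceptible B6, 0 and 0 against resilient, 0 and 0 in susceptible D2 mice, 12 and 4 between strains, and 0 cytosolic in the interaction. Mrps5 in resilient B6 mice of the vHPC reversed there to −0.014. In that fit, comparisons with control B6 mice of the vHPC rest on the 1 of them that shared a library set with another group. With only the compared groups in the fit, they were 0 mitochondrial between strains in the BNST, 0 and 0 in susceptible B6 mice of the mPFC, and in the vHPC 3 mitochondrial in resilient B6 mice, 12 and 1 against resilient, 1 mitochondrial in susceptible D2 mice, and 15 and 3 in the interaction. With the prefix of the mouse IDs in the fit, they were 0 and 0 in susceptible B6 mice of the mPFC, and the strain difference could not be fitted. With sequencing set as a covariate in the vHPC, 1 mitochondrial gene was called in resilient B6 and 0 in susceptible D2 mice. Quantile normalization gave 1 mitochondrial gene against resilient mice in the mPFC. In the BNST interaction, DESeq2 gave 9 cytosolic genes, and no TMM factors 1 cytosolic and 2 mitochondrial genes. DESeq2 also gave 2 higher and 2 lower mitochondrial genes between strains in the BNST.

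Without members over 20% shared (chosen after seeing the data), cytosolic calls were 0 between strains in the BNST, and 0 in susceptible B6 mice and 12 between strains in the mPFC. In the vHPC they were 4 in resilient B6, 17 in susceptible B6, 22 against resilient, 2 in susceptible D2 mice, 15 between strains and 2 in the interaction. The fit was unchanged and the members over 20%, 42 of the 85 cytosolic genes, were not counted. These counts thus come from far fewer genes than the main ones, and a smaller count alone does not mean a smaller share called. Among the members not counted are Rps2 (60% shared), Rpl3 (51.1%), Rps3a1 (46.8%), Rpl29 (42.6%) and Rpsa (33.3%), while Rplp0 (18.4%) and Rps18 (14.4%) stayed.

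Leaving out 1 mouse gave these ranges of calls. Cytosolic genes had 2 to 4 between strains and 0 to 6 in the interaction in the BNST, 0 to 3 in susceptible B6 mice, 0 to 1 against resilient and 20 to 28 between strains in the mPFC, and in the vHPC 12 to 15 in resilient B6, 22 to 35 in susceptible B6, 18 to 46 against resilient, 6 to 8 in susceptible D2 mice, 33 to 36 between strains and 1 to 9 in the interaction. Mitochondrial genes had 2 to 4 between strains in the BNST, 0 to 1 in susceptible B6 mice, 0 to 1 against resilient and 12 to 18 between strains in the mPFC, and in the vHPC 4 to 8 in resilient B6, 15 to 27 in susceptible B6, 4 to 40 against resilient, 1 to 3 in susceptible D2 mice and 33 to 38 between strains. The other comparisons had 0 to 0. Single mice moved some of these by over 1.5 times. In the BNST interaction, cytosolic calls were 5 without control B6 replicate 4 and 6 without control D2 replicate 5. In susceptible B6 mice of the mPFC, cytosolic calls were 0 without control B6 replicate 1, 3, 4 or 5 or susceptible replicate 2, 5 or 6, and 3 without susceptible replicate 4. Mitochondrial calls were 0 there without control replicate 1, 3, 4 or 5 or susceptible replicate 1, 2, 3, 5 or 6. Against resilient mice of the mPFC, 1 cytosolic gene was called without susceptible replicate 1, and 1 mitochondrial gene without resilient replicate 5 or susceptible replicate 3. In susceptible B6 mice of the vHPC, mitochondrial calls were 15 without susceptible replicate 2. Against resilient mice of the vHPC, cytosolic calls were 23 and 18 without susceptible replicate 1 and 2, and mitochondrial calls were 8, 4 and 11 without susceptible replicate 1, 2 and 3 and 40 without resilient replicate 7. In susceptible D2 mice, mitochondrial calls were 1 without control D2 replicate 5 or 6 or susceptible D2 replicate 2, 3 or 4. In the vHPC interaction, cytosolic calls were 4 without control B6 replicate 5, susceptible B6 replicate 2 or susceptible D2 replicate 1, 4 or 5, and 1 without susceptible B6 replicate 1. The cause of these changes was not tested.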

Other observations

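Ribosomal proteins whose genes carry other names were measured as well. Fau encodes a small subunit protein fused to a ubiquitin-like domain, and it moved opposite to Rpl29. In the vHPC, it had −0.73, −0.59 and 0.06 log2 CPM (lowest, median and highest) in control, 0.56, 0.83 and 0.998 in resilient and 0.75, 1.08 and 1.116 in susceptible B6 mice. Control D2 mice had 2.64, 3.23 and 3.45 and susceptible D2 mice 3.92, 3.93 and 4.31, so only the 2 defeated B6 groups overlapped. The log2 difference between D2 and B6 control mice was 3.56 in the vHPC (adjusted p = 2.83e-17), 1.303 in the mPFC (adjusted p = 1.95e-09) and 0.33 in the BNST (adjusted p = 0.649), and after defeat Fau rose by 1.46 in susceptible B6 (adjusted p = 5.21e-07), 1.28 in resilient B6 and 0.96 in susceptible D2 mice of the vHPC (adjusted p = 0.000150). Rack1, a scaffold on the small subunit, fell by 0.32 in susceptible B6 mice of the vHPC (adjusted p = 0.00704).

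Pseudogenes named after cytosolic members were tested too, and those named after mitochondrial members were not counted. In the vHPC, 9 of 59 rose and 10 fell in susceptible B6 mice (median −0.044), where 40.6% of all genes were called, and between strains 17 were higher and 14 lower in D2 mice, where 59.3% of all genes were called. In the BNST, where 22 passed the filter, edgeR called 5 higher and 1 lower in D2 mice (2.51% of all genes called) and 0 in the stress comparisons.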
